A study of Mus musculus with 16 samples.

Results

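The ligands of the tumor necrosis factor (TNF) family and their receptors were described in bulk RNA-seq of 16 MC38 tumors. Members were the protein-coding genes whose symbol is Tnfsf or Tnfrsf followed by a digit, plus Tnf, Fas, Cd40, Cd40lg, Cd27 and Cd70, with 3 receptor genes left out by the rule. This gave 34 of the 53465 genes of the counts matrix, of which 14 encode ligands and 20 encode receptors. MC38 is a colorectal carcinoma line of mouse, and the cells were grown under the skin of the right flank in female C57BL/6 mice of 6 to 8 weeks. Mice whose tumor measured 150 to 250 mm3 on day 16 were assigned at random to control IgG or to an antibody against PD-1 (aPD-1), received 200 µg on days 16 and 20, and gave 1 tumor each on day 21. The groups were 8 IgG control tumors (replicates 1 to 8), 6 aPD-1 non-responder tumors (replicates 9 to 14) and 2 aPD-1 responder tumors (replicates 15 and 16). The study named a treated tumor a responder after treatment, by CD8 T cell staining of its tissue, so T cell genes bear on that choice and the responder contrast is not a randomised one. The tumors come from 1 cell line and each library holds tumor, stroma and immune cells together.

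TNF ligands are made by activated T cells, B cells, macrophages, dendritic cells and stroma, mostly as trimers on the cell surface, and each binds 1 or a few receptors. Receptors with a death domain can start apoptosis, while most others recruit TRAF adaptors and activate NF-kB, which sustains lymphocytes or switches on inflammatory genes. In tumors and lymphoid tissue the family is known for costimulation of T cells, for help and survival signals to B cells, and for killing of target cells through Fas and the TRAIL receptors.

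Total counts lay between 26603449 and 39948866 per tumor. The mitochondrial share of counts lay between 2.52% and 7.60%, and 3 tumors stood apart with the highest shares, IgG control replicate 1 at 7.60% and non-responder replicates 9 and 14 at 6.00% and 5.73%. In IgG control replicate 3 a single gene, CT010467.1, took 20.4% of the counts, against at most 0.489% in any other tumor. Although the labels name a carcinoma, 6 of 7 epithelial markers were low in the IgG control and non-responder tumors. Over these 14 tumors Krt8, for example, lay between 0.0304 and 1.37 CPM (counts-per-million, on TMM-scaled library totals) and Epcam between 0.0608 and 0.942 CPM. Cdh1 lay between 3.75 and 8.12 CPM there.

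Of the 34 members, 33 passed the filter on low counts and were tested, and Cd70 did not, with 21 counts in all tumors together. In responders against non-responders 9 of the 33 rose, called where edgeR gave an adjusted p under 0.05 with a log2 fold change of more than 1, and 0 fell by that rule. These were 4 of 13 ligands (Cd40lg, Tnfsf8, Tnfsf11 and Tnfsf14) and 5 of 20 receptors (Cd27, Cd40, Tnfrsf13b, Tnfrsf13c and Tnfrsf25). Among all 18251 genes tested 12.5% were called higher in responders and 0.663% lower. By the adjusted p alone 11 members were higher, where 15.4% of all genes were, and 3 were lower, where 4.34% of all genes were. The additional genes were Fas and Tnfrsf21 among the higher ones, and Tnfrsf12a, Tnfrsf22 and Tnfrsf23 as the lower ones. For 17 members both responders had higher levels than each of the 6 non-responders, against 21.5% of all genes, and for 4 members lower levels than each, against 13.2% of all genes. The median log2 fold change was 0.60 over the 33 members and 0.02 over all genes tested. The filter let through genes seen in as few tumors as the responder group holds, and 4 of the 33 (Cd40lg, Tnfrsf13c, Tnfrsf19 and Tnfsf15) did not pass it with all treated tumors taken as 1 group. With at least 10 counts required in at least 8 tumors, 29 members were tested and 7 were called higher, without Cd40lg and Tnfrsf13c, where 9.53% of 15901 genes were called higher. In bulk tissue, fewer cells of a type and less RNA per cell cannot be told apart, and this holds for every difference given here. The plot of levels by tumor shows the 9 called members.

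**Figure D1:**
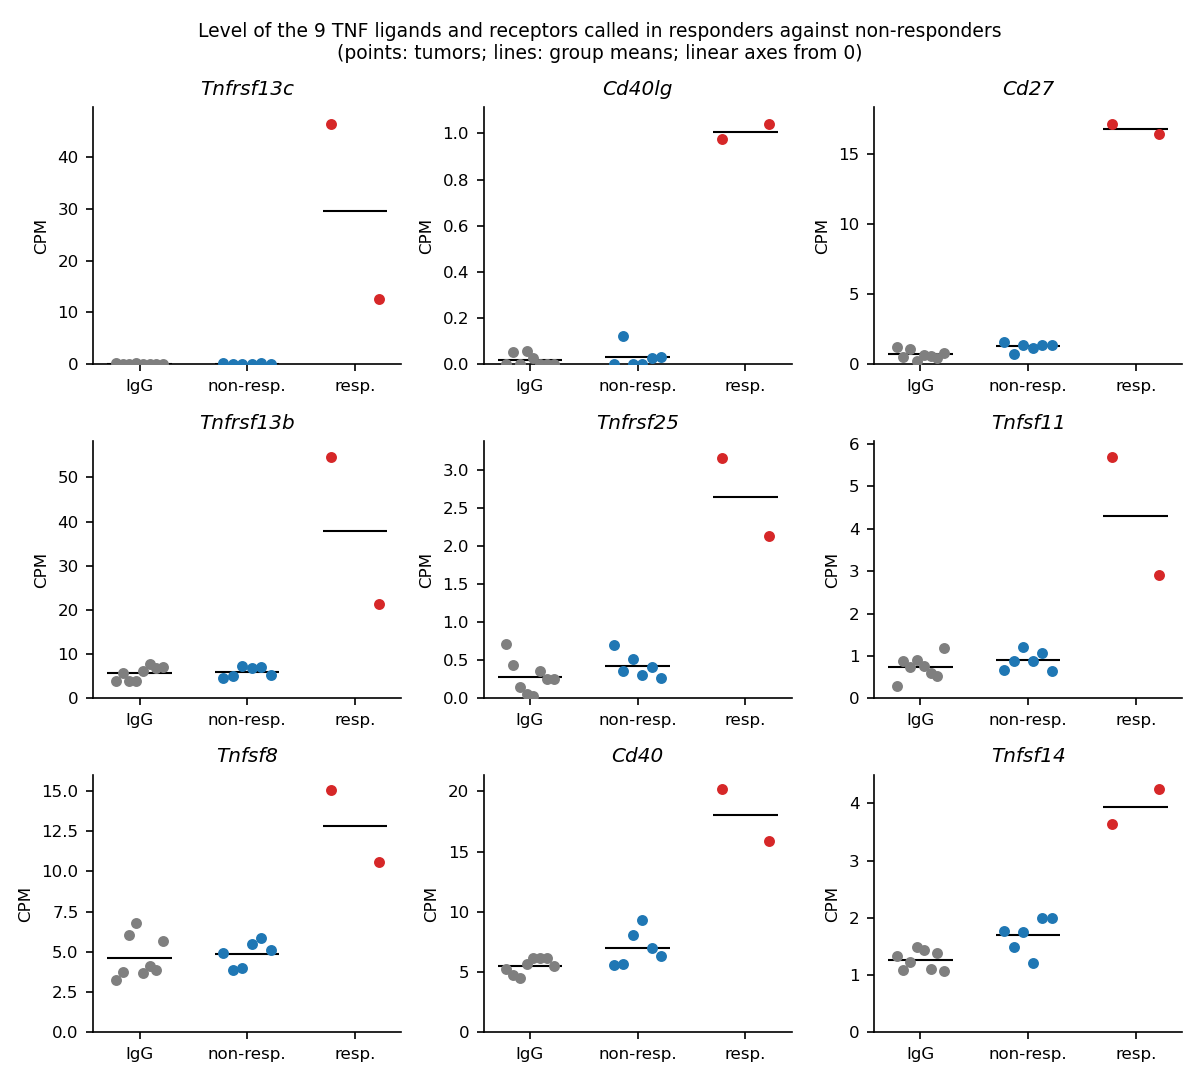
Each panel plots 1 of the 9 called members, with CPM on a linear axis from 0 and the 8 IgG control, 6 non-responder and 2 responder tumors as points around a line at the group mean. Both responder points lie above every other tumor in all 9 panels, and Tnfrsf13c reads 46.3 and 12.6 CPM in the responders against at most 0.366 CPM elsewhere.

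Against the 8 IgG control tumors 14 of the 33 members rose in responders by the same rule and 0 fell, where 14.3% of all genes were called higher and 0.641% lower. These were the 9 above and Tnfrsf8, Tnfrsf11b, Tnfrsf21, Tnfsf10 and Tnfsf15. By the adjusted p alone 18 members were higher, where 17.7% of all genes were, and 4 were lower, where 5.17% of all genes were. Both responders lay above all 8 controls for 19 members, against 19.3% of all genes, and below all controls for 4 members, against 9.67% of all genes. The median log2 fold change was 0.84 over the members and -0.02 over all genes. Both comparisons use the same 2 responders, so they are not independent of each other.

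The calls depended on which responder was present. The share of all genes called in the fits with a tumor left out is not given, so these counts stand without it. Leaving out replicate 15 reduced the 9 calls against non-responders to 6 and the 14 against IgG controls to 9, while leaving out replicate 16 gave 11 in both, in the first of which Tnfrsf12a was called lower. Tnfrsf13c, Tnfrsf13b, Cd27, Cd40, Cd40lg and Tnfsf14 were called against non-responders whichever single tumor was left out. Tnfrsf25, Tnfsf8 and Tnfsf11 lost the call without replicate 15, at edgeR adjusted p of 0.156, 0.0882 and 0.0567.

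RefSeq promoter entries (GRCm38.p6) were found for 24 of the 34 members. They are shown for the 4 of those 6 steadily called members that have an entry, as the 250 bases before the most upstream start, 5′ to 3′ on the gene's strand, so that the windows of members that rose together can be read side by side. Capitals mark matches to the letters searched on both strands, which here are GGAAAA, the core bound by NFAT factors, and in Tnfsf14 TGACTCA, the site bound by AP-1. The windows lie at chr15:82224381-82224630 (minus strand), chr11:61126505-61126754 (plus strand), chr6:125237028-125237277 (minus strand) and chr17:57194182-57194431 (minus strand), in the order printed, and overlap no annotated exon.
Tnfrsf13c: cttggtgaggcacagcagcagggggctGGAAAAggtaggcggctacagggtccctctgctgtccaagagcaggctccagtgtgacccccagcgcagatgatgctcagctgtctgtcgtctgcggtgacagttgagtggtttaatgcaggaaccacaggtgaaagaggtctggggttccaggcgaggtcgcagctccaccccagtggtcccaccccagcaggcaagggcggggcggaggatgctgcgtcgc
Tnfrsf13b: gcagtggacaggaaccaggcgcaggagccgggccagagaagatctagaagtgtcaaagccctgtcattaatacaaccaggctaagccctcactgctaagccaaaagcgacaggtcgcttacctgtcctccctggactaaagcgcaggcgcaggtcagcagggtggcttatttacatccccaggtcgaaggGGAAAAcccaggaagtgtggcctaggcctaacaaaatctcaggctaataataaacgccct
Cd27: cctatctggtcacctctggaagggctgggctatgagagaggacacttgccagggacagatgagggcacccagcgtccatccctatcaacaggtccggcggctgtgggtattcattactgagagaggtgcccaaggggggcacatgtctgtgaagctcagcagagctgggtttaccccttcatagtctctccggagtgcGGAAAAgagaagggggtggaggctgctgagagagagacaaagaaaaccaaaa
Tnfsf14: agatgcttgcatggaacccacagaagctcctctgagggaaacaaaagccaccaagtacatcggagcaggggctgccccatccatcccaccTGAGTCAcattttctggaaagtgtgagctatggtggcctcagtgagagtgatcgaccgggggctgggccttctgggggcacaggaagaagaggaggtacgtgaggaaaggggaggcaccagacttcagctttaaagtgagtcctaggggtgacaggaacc
The GGAAAA match began 223 bases before the start in Tnfrsf13c, 60 bases before it in Tnfrsf13b and 52 bases before it in Cd27, and the AP-1 match began 160 bases before the start in Tnfsf14. GGAAAA was present in 9 of the 24 member promoters and in 20.7% of the 27025 mouse promoter windows of this length, 1 per gene. TGACTCA was present in 4 of the 24 (Fas, Tnfrsf8, Tnfsf13 and Tnfsf14) and in 4.43% of all. TTCNNNGAA, the letters of STAT sites, was present in 3 of the 24 and in 7.14% of all, TATAAA in 4 of the 24 and in 12.98% of all, and the NF-kB consensus in 1 of the 24, Tnfrsf8, and in 7.03% of all. No match overlapped another in the printed windows, and matching letters describe the sequence and not the binding of a factor.

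Among the 6 members that carry help and survival signals to B cells, 4 rose in responders against non-responders and the soluble ligands Tnfsf13 and Tnfsf13b did not pass the test. Tnfrsf13c encodes the BAFF receptor, which mature B cells need to survive, and lies at chr15:82221743-82224369. Its level had a lowest, median and highest value of 0.0259, 0.132 and 0.266 CPM in IgG controls and 0.0608, 0.114 and 0.366 CPM in non-responders, and it was 46.3 CPM in responder replicate 15 and 12.6 CPM in replicate 16. The responders stood above both other groups, which overlapped each other, and the lower responder still had 449 counts where no other tumor had more than 12. The fitted log2 fold change against non-responders was 7.55 ± 0.58 (SE, n = 2 and 6, edgeR adjusted p = 1.53e-07), the highest among the members, and 6.25 without replicate 15.

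Tnfrsf13b encodes TACI, a receptor that binds both BAFF and APRIL, and lies at chr11:61126755-61149372. Its level was 3.84, 5.90 and 7.75 CPM (lowest, median, highest) in IgG controls, 4.67, 6.17 and 7.29 CPM in non-responders, and 54.6 and 21.4 CPM in responder replicates 15 and 16. Unlike that of Tnfrsf13c, its level was several CPM in every tumor. Both responders were above all other tumors, with a log2 fold change of 2.64 ± 0.30 against non-responders (SE, edgeR adjusted p = 6.82e-06).

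Cd40, at chr2:165055627-165072948, encodes the receptor through which helper T cells activate B cells, dendritic cells and macrophages. Its level was 4.53, 5.59 and 6.20 CPM in IgG controls, 5.62, 6.68 and 9.34 CPM in non-responders, and 20.2 and 15.9 CPM in the responders. The responders did not overlap the other groups, while non-responders and IgG controls overlapped. The log2 fold change against non-responders was 1.36 ± 0.19 (SE, edgeR adjusted p = 5.71e-05).

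Cd40lg, the ligand of Cd40 on activated helper T cells, lies at chrX:57212143-57224042. It had 0 counts in 5 of 8 IgG controls and in 3 of 6 non-responders, at most 2 and 4 counts in the remaining tumors of these groups, and 33 and 37 counts in the responders. Its level was therefore at most 0.0600 CPM in IgG controls and 0.122 CPM in non-responders, against 0.975 and 1.04 CPM in the responders. The fitted log2 fold change against non-responders was 4.94 ± 0.90 (SE, edgeR adjusted p = 0.000748), a value that rests on few counts in the lower group and on the prior count of the fit.

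The ligands of the other receptors of this group were less uniform. Tnfsf13b, which encodes BAFF, was 16.3 CPM in replicate 15 and 6.69 CPM in replicate 16, on either side of the 8.93 to 13.2 CPM of the non-responders, with a log2 fold change of -0.06 ± 0.36 (SE, edgeR adjusted p = 0.939) that was -0.91 without replicate 15 and 0.39 without replicate 16. Tnfsf13, which encodes APRIL, was 5.17 and 5.82 CPM in responders against 2.76 to 4.84 CPM in non-responders, at a log2 fold change of 0.58 ± 0.25 (SE, edgeR adjusted p = 0.122). Against IgG controls Tnfsf13 was higher at 0.77 ± 0.24 (SE, edgeR adjusted p = 0.0254), a value below the fold threshold that was lost when either responder was left out and when no filter on low counts was used.

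Among the 11 tested members that costimulate T cells, 4 rose against non-responders. Cd27, at chr6:125232622-125237010, encodes a receptor on naive and memory T cells that sustains their expansion. Its level was 0.270, 0.642 and 1.25 CPM in IgG controls, 0.759, 1.37 and 1.62 CPM in non-responders, and 17.1 and 16.4 CPM in responder replicates 15 and 16. The responders were alike and far above all others, with a log2 fold change of 3.71 ± 0.36 against non-responders (SE, edgeR adjusted p = 1.69e-06). Cd70, its ligand, had at most 0.152 CPM in any tumor and no test.

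Tnfrsf25, at chr4:152115934-152120119, encodes DR3, a receptor of T cells for the ligand TL1A. Its level was 0.0287, 0.251 and 0.722 CPM in IgG controls, 0.271, 0.388 and 0.702 CPM in non-responders, and 3.16 and 2.14 CPM in responders. It stood on 107 and 76 counts in the responders and on at most 23 counts elsewhere. The log2 fold change against non-responders was 2.62 ± 0.63 (SE, edgeR adjusted p = 0.00648). Tnfsf15, which encodes TL1A, was 0.562 and 0.956 CPM in responders against at most 0.418 CPM elsewhere, a log2 fold change of 1.44 ± 0.62 that did not pass against non-responders (SE, edgeR adjusted p = 0.124) and of 1.90 ± 0.59 against IgG controls (SE, edgeR adjusted p = 0.0271). The call against IgG controls was lost without replicate 15, without replicate 16 and in the fit of those groups alone, at adjusted p of 0.115, 0.274 and 0.0570.

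Tnfsf8, at chr4:63831308-63861347, encodes the ligand of CD30. Its level was 3.23, 3.99 and 6.78 CPM in IgG controls, 3.86, 5.03 and 5.86 CPM in non-responders, and 15.1 and 10.6 CPM in responders. Against non-responders this gave a log2 fold change of 1.39 ± 0.26 (SE, edgeR adjusted p = 0.000907). Tnfrsf8, which encodes CD30, was 1.42 and 1.12 CPM in responders and up to 1.18 CPM in non-responders, so the groups overlapped, with a log2 fold change of 0.88 ± 0.51 (SE, edgeR adjusted p = 0.268). Against IgG controls, all of which lay below both responders, it was called at 1.65 ± 0.48 (SE, edgeR adjusted p = 0.0189), and the call was lost without replicate 15 or 16, at adjusted p of 0.270 and 0.0642.

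Tnfsf14, at chr17:57189492-57194177, encodes LIGHT, a costimulatory ligand of T cells that also binds the lymphotoxin beta receptor. Its level was 1.08, 1.28 and 1.499 CPM in IgG controls, 1.22, 1.76 and 2.005 CPM in non-responders, and 3.64 and 4.25 CPM in responders. Here replicate 16 was the higher responder. The log2 fold change against non-responders was 1.21 ± 0.23 (SE, edgeR adjusted p = 0.00107). Its receptor HVEM, encoded by Tnfrsf14, was 13.9 CPM in both responders against 7.38 to 12.02 CPM in non-responders, at 0.51 ± 0.21 (SE, edgeR adjusted p = 0.0982). Against IgG controls Tnfrsf14 passed at 0.62 ± 0.20 (SE, edgeR adjusted p = 0.0316), below the fold threshold, but not with no filter on low counts. That change was 0.55 without replicate 15 and 0.56 without replicate 16.

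The remaining costimulatory members did not pass in either responder comparison. Tnfrsf9, which encodes the activation receptor 4-1BB, was 14.6 and 28.2 CPM in the responders and spanned 10.01 to 27.8 CPM in non-responders and 7.36 to 18.8 CPM in IgG controls. Its ligand Tnfsf9 was 7.51 and 8.69 CPM in responders, inside the 6.46 to 13.8 CPM of the IgG controls. Tnfsf4, the ligand OX40L, was 0.798 and 1.43 CPM in responders against 0.519 to 1.62 CPM in non-responders. Tnfsf18, the ligand GITRL, was 0.887 and 0.169 CPM in responders against 0.102 to 1.12 CPM in non-responders. The log2 fold changes against non-responders were 0.21 ± 0.42 for Tnfrsf9, -0.20 ± 0.24 for Tnfsf9, 0.05 ± 0.61 for Tnfsf4 and -0.09 ± 1.13 for Tnfsf18 (SE), and differences of more than these errors would also have missed the threshold. The plot of fold changes by role shows all 33 tested members side by side.

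**Figure D2:**
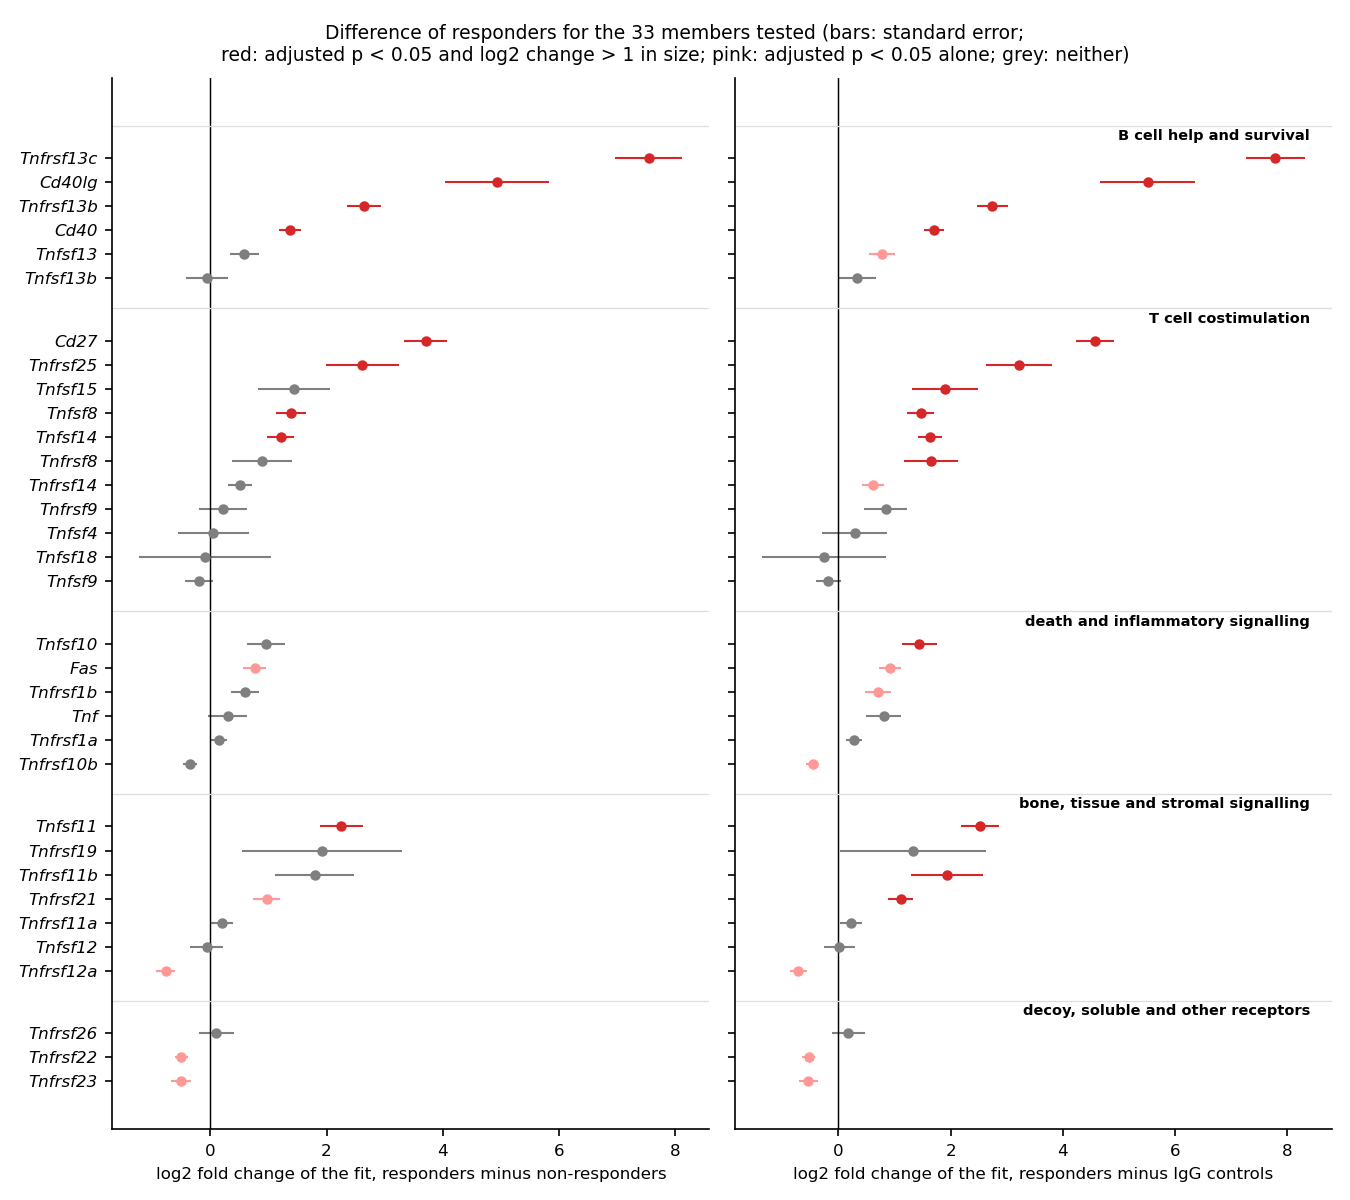
Points give the log2 fold change of the fit and bars its standard error for the 33 tested members, ordered within 5 roles, for responders against non-responders on the left and against IgG controls on the right. The B cell and T cell roles hold 8 of the 9 called members on the left, and the lowest values belong to Tnfrsf12a, Tnfrsf22 and Tnfrsf23.

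Of the 6 members grouped under death and inflammatory signalling, 0 were called against non-responders, where 12.5% of all genes were called higher and 0.663% lower. For 3 of the 6 both responders lay above every non-responder, against 21.5% of all genes, and for 1 below, against 13.2%. Whether this role differs from all genes was not tested. The receptors DR3 (Tnfrsf25) and DR6 (Tnfrsf21) were grouped under other roles. There Tnfrsf25 was called and Tnfrsf21 passed by the adjusted p alone. Fas, the receptor through which killer T cells start apoptosis, was 17.1 and 16.3 CPM in responders, above the 8.75 to 11.5 CPM of non-responders and the 5.80 to 11.2 CPM of IgG controls. It passed the test with a log2 fold change of 0.76 ± 0.21 (SE, edgeR adjusted p = 0.0147), below the fold threshold, and did not pass without replicate 15, replicate 16 or non-responder replicate 10, at adjusted p of 0.244, 0.0848 and 0.0502. Tnf itself was 8.87 and 7.17 CPM in responders against 4.64 to 8.37 CPM in non-responders and 2.82 to 8.17 CPM in IgG controls. Its log2 fold change was 0.30 ± 0.34 against non-responders (SE, edgeR adjusted p = 0.617), and against IgG controls it was 0.81 ± 0.32 (SE, edgeR adjusted p = 0.0803). The ligand that names the family thus passed in neither comparison, though against IgG controls it passed without IgG control replicate 1 (edgeR adjusted p = 0.0140) and without the 3 tumors of high mitochondrial share (edgeR adjusted p = 0.00692).

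Neither receptor of TNF passed against non-responders. Tnfrsf1a, the widely expressed receptor with a death domain, was 81.5 and 65.9 CPM in responders against 56.7 to 75.3 CPM in non-responders, at a log2 fold change of 0.14 ± 0.15 (SE, edgeR adjusted p = 0.589). Tnfrsf1b, the receptor of immune and endothelial cells, was 73.3 and 84.1 CPM against 37.7 to 71.1 CPM, at 0.60 ± 0.24 (SE, edgeR adjusted p = 0.0916), and it passed against IgG controls at 0.71 ± 0.23 (SE, edgeR adjusted p = 0.0311), a value lost when either responder was left out.

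Tnfsf10, at chr3:27317028-27342427, encodes TRAIL, an interferon-inducible ligand that can kill tumor cells. Its level was 5.59, 8.19 and 17.0 CPM in IgG controls, 8.06, 12.1 and 18.9 CPM in non-responders, and 25.9 and 22.1 CPM in responders, which lay above all others. Against IgG controls the log2 fold change was 1.44 ± 0.31 (SE, edgeR adjusted p = 0.00229), and it did not pass without replicate 15 (edgeR adjusted p = 0.0829). Against non-responders it was 0.96 ± 0.33 and just missed the threshold (SE, edgeR adjusted p = 0.0503), which it passed with DESeq2 (adjusted p = 0.0325).

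Of the receptors of TRAIL, Tnfrsf10b, Tnfrsf22 and Tnfrsf23 were lower in both responders than in any other tumor. Tnfrsf10b, the mouse death receptor for TRAIL, was 20.5 and 23.4 CPM in responders, below the 25.6 to 30.1 CPM of non-responders and the 26.3 to 35.2 CPM of IgG controls. Its log2 fold change of -0.35 ± 0.12 against non-responders just missed the threshold (SE, edgeR adjusted p = 0.0501), which it passed with DESeq2 (adjusted p = 0.0106), with median-of-ratios size factors (adjusted p = 0.0428) and without the 3 tumors of high mitochondrial share (adjusted p = 0.0236). It did not pass in the fit of those groups alone or with at least 10 counts required in at least 8 tumors. In that contrast the change was -0.33 without replicate 15 and -0.51 without replicate 16. It was -0.46 ± 0.12 against IgG controls, where it fell (SE, edgeR adjusted p = 0.00946) but did not pass without replicate 15 (edgeR adjusted p = 0.131). Tnfrsf22, a decoy receptor for TRAIL without a death domain, was 20.2 and 19.4 CPM in responders, below the 26.8 to 29.9 CPM of non-responders and the 23.8 to 32.5 CPM of IgG controls. It fell by 0.50 ± 0.11 on the log2 scale against non-responders (SE, edgeR adjusted p = 0.00483) and passed whichever tumor was left out. Tnfrsf23, another decoy receptor, was 16.3 and 15.8 CPM in responders against 17.2 to 26.1 CPM in non-responders, and its fall of 0.51 ± 0.17 on the log2 scale (SE, edgeR adjusted p = 0.0478) was lost without replicate 15 and without replicate 16, at adjusted p of 0.190 and 0.136.

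Tnfrsf26, next to these genes on chromosome 7, did not pass. It was 17.9 CPM in both responders, within the 12.2 to 18.7 CPM of non-responders, at a log2 fold change of 0.10 ± 0.30 (SE, edgeR adjusted p = 0.874). The 3 genes lie in a row at chr7:143607659-143628722 (Tnfrsf26), chr7:143634806-143649661 (Tnfrsf22) and chr7:143665809-143685872 (Tnfrsf23). The deposited counts of Tnfrsf22 and Tnfrsf23 were not whole numbers in any of the 16 tumors, so reads were divided between genes and their separate values are uncertain, while those of Tnfrsf26 were whole in all 16.

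Of the 7 members known from bone, tissue and stromal signalling, Tnfsf11 was called against non-responders, where 12.5% of all genes were called higher. Tnfsf11, at chr14:78277445-78308043, encodes RANKL, made by activated T cells, osteoblasts and the stroma of lymph nodes. Its level was 0.304, 0.762 and 1.19 CPM in IgG controls, 0.644, 0.884 and 1.21 CPM in non-responders, and 5.68 and 2.90 CPM in responders. The log2 fold change against non-responders was 2.25 ± 0.37 (SE, edgeR adjusted p = 0.000313).

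The receptors of RANKL differed from each other. Tnfrsf11a, the signalling receptor RANK, was 11.6 and 11.3 CPM in responders and 7.89 to 13.5 CPM in non-responders, at a log2 fold change of 0.20 ± 0.20 (SE, edgeR adjusted p = 0.567). Tnfrsf11b, at chr15:54250619-54278484, encodes the soluble inhibitor osteoprotegerin. Its level was 0.152, 0.748 and 1.70 CPM in IgG controls, 0.122, 0.921 and 1.46 CPM in non-responders, and 2.99 and 3.07 CPM in responders, above all others. It rose against IgG controls by a log2 fold change of 1.94 ± 0.64 (SE, edgeR adjusted p = 0.0374) and lost the call when either responder or any 1 of IgG control replicates 3, 4, 5 and 7 was left out. Against non-responders it was 1.80 ± 0.68 (SE, edgeR adjusted p = 0.0768).

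Tnfrsf12a encodes the receptor of TWEAK, which injured epithelium, fibroblasts and many tumor lines express, and lies at chr17:23675445-23677468. It was 61.2 and 80.5 CPM in responders, below the 103 to 139 CPM of non-responders and the 103 to 147 CPM of IgG controls. It fell by 0.77 ± 0.16 on the log2 scale against non-responders (SE, edgeR adjusted p = 0.00233), by 1.04 without replicate 16, and did not pass without replicate 15 (edgeR adjusted p = 0.0927). Its ligand Tnfsf12, TWEAK, was 12.1 and 9.76 CPM in responders against 8.68 to 15.5 CPM in non-responders, at -0.07 ± 0.28 (SE, edgeR adjusted p = 0.909).

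Tnfrsf21, at chr17:43016555-43089189, encodes the death receptor DR6. Its level was 4.53, 5.55 and 7.55 CPM in IgG controls, 4.77, 5.58 and 8.50 CPM in non-responders, and 13.8 and 10.7 CPM in responders. The log2 fold change was 0.97 ± 0.23 against non-responders (SE, edgeR adjusted p = 0.00693) and 1.11 ± 0.22 against IgG controls (SE, edgeR adjusted p = 0.00131), and it passed in neither comparison without replicate 15, at adjusted p of 0.255 and 0.107. Tnfrsf19, the receptor TROY of stem and progenitor cells, was 0.887 and 0.225 CPM in responders and had a wide error at 1.92 ± 1.37 (SE, edgeR adjusted p = 0.382). Tnfsf12 and Tnfsf13 are neighbours at chr11:69686250-69695849 and chr11:69682846-69685784 with a readthrough gene, Tnfsfm13, across both. Their deposited values were not whole numbers in 15 and 16 tumors, so their separate values are uncertain too.

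Members that lie side by side in the genome were not all called together. On chromosome 17 Tnfsf9 (57105325 to 57107757), Cd70 (57145997 to 57149777) and Tnfsf14 lie in a row, of which Tnfsf14 was called, Tnfsf9 was not and Cd70 was not tested. On chromosome 4 Tnfsf15 (63727084 to 63745113) lies next to Tnfsf8, which was called in both comparisons while Tnfsf15 was called against IgG controls, and Tnfrsf1b (145213463 to 145246870) lies next to Tnfrsf8 (145267137 to 145315164), of which neither was called against non-responders. On chromosome 6 Cd27 was called and its neighbour in the family, Tnfrsf1a (125349362 to 125362484), was not.

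The order of levels between genes was compared per kb of exon. In IgG controls Tnfrsf12a was first at 60.1 ± 7.73 CPM per kb (SD, n = 8), followed by Tnfrsf1a at 23.5 ± 2.92 and Tnfrsf1b at 12.6 ± 2.31, and the ranges of these 3 receptors over the 8 tumors did not overlap, while that of Tnfrsf1b overlapped the next gene. The next 4 genes, Tnfsf12, Tnfsf9, Tnfrsf22 and Tnfrsf14, lay between 6.31 and 7.11 CPM per kb and did not differ beyond their SD. The most abundant ligands were thus Tnfsf12 at 7.11 ± 2.33 and Tnfsf9 at 7.10 ± 1.85 CPM per kb. The lowest were Tnfrsf19 at 0.0448 ± 0.0815, Cd40lg at 0.0143 ± 0.0210 and Cd70 at 0.00564 ± 0.0160 CPM per kb. In responders Tnfrsf12a had the highest mean at 36.7 ± 7.05 CPM per kb (SD, n = 2), followed by Tnfrsf1a at 28.5 ± 4.26, and their SD ranges overlapped. Tnfrsf13c, at rank 30 of 34 in IgG controls with 0.0655 ± 0.0430, had 14.4 ± 11.6 CPM per kb in responders. The plot of levels per kb gives the full order.

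**Figure D3:**
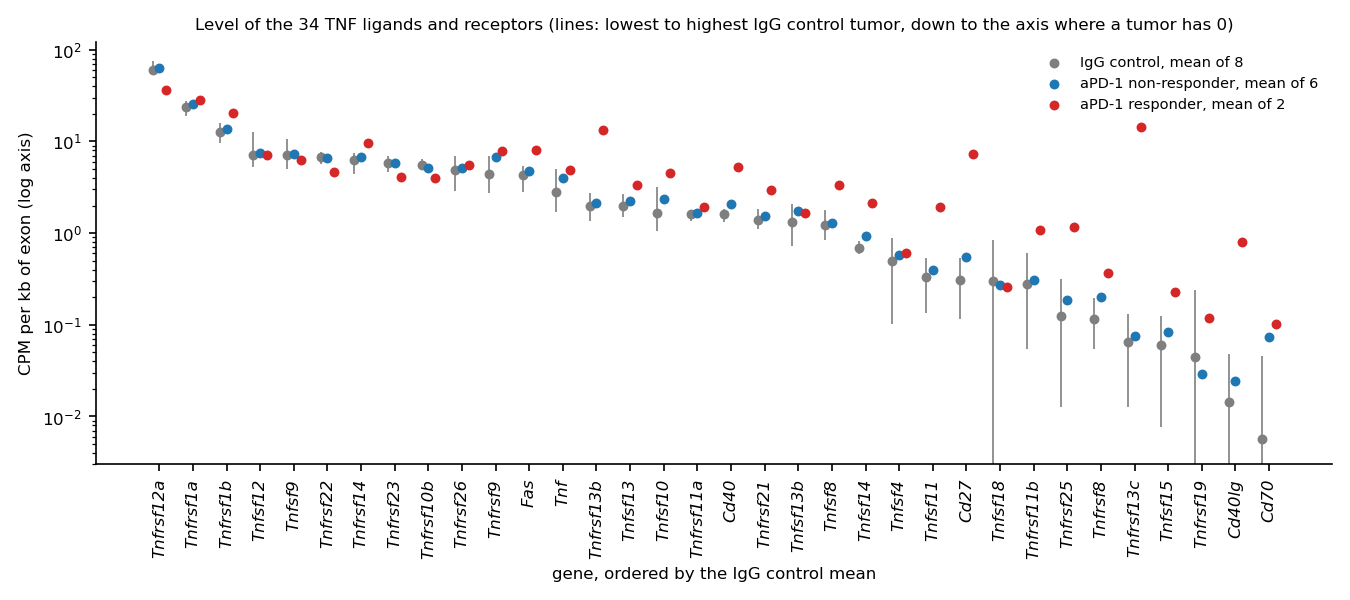
Group means of CPM per kb of exon are plotted on a log axis for the 34 members, ordered by the IgG control mean, with lines from the lowest to the highest IgG control tumor. The grey IgG control and blue non-responder points lie close together for most genes, and the red responder points stand far above them for Tnfrsf13c, Cd40lg and Cd27 and below them for Tnfrsf12a, Tnfrsf22, Tnfrsf23 and Tnfrsf10b.

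Lymphocyte markers were higher in the same 2 tumors. Of 12 T cell markers, 12 were called higher in responders against non-responders, and their summed level was 22.04 to 67.9 CPM in IgG controls, 27.4 to 89.1 CPM in non-responders, and 477 and 406 CPM in replicates 15 and 16. All 10 B cell markers were called, with a sum of 3.73 to 14.1 CPM in IgG controls, 5.53 to 12.6 CPM in non-responders, and 1532 and 396 CPM in the responders. No T cell or B cell marker was at 0 in every tumor outside the responders. For 6 of 6 markers of high endothelial venules and the stroma of lymph nodes the sum was 0.190 to 2.19 CPM in IgG controls, 0.922 to 4.58 CPM in non-responders, and 423 and 130.5 CPM in the responders. For 6 of 6 adipocyte markers it was 16.1 to 83.8, 19.4 to 52.6, and 1241 and 230.4 CPM, and 6 of 7 epithelial markers were called with sums of 4.83 to 10.3, 4.43 to 11.98, and 123 and 52.5 CPM. Markers of cytotoxic lymphocytes were called in 7 of 10, with sums of 24.3 to 72.2, 41.3 to 103, and 105 and 239 CPM, and of naive T cells in 6 of 7, with sums of 48.2 to 84.4, 64.4 to 94.2, and 488 and 396 CPM. Markers of plasma cells were called in 4 of 6, with sums of 137 to 205, 134 to 206, and 711 and 570.4 CPM, and of dendritic cells in 5 of 8, with sums of 122 to 195, 133 to 208, and 215 and 184 CPM. Fewer were called of neutrophils, namely 2 of 5 tested, of endothelium 3 of 8, of fibroblasts 2 of 10, of macrophages 1 of 10, and of skeletal muscle and keratinocytes 0 of 6 and 0 of 5 tested. Ly6g, a defining neutrophil marker, was at 0 in all tumors. The part of these cells in the differences of the members was not tested.

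The members were also expressed in percent of the summed level of a marker list in the same tumor. Tnfrsf13c was 3.02% and 3.19% of the B cell list in replicates 15 and 16, against 0.340% to 3.08% in IgG controls and 0.809% to 3.30% in non-responders. The ratio of replicate 15 to replicate 16 was 3.66 for Tnfrsf13c and 3.87 for the B cell list, so the gene and the list differed alike between the responders. Tnfrsf13b and Cd40 also rose in both responders, with ratios of replicate 15 to replicate 16 of 2.55 and 1.27. Their percent of the B cell list was nevertheless lower there. In IgG controls the list summed to 3.73 to 14.1 CPM, while Tnfrsf13b was at least 3.84 CPM and Cd40 at least 4.53 CPM. A lower percent therefore does not tell whether these genes rose with the list. Tnfrsf13b was 3.56% and 5.40% of it in responders and 28.4% to 176% in IgG controls, and Cd40 was 1.32% and 4.02% of it in responders and 40.1% to 165% in IgG controls.

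Cd27 was 3.59% and 4.05% of the T cell list in responders. It was 1.10% to 3.77% in IgG controls (median 1.82%) and 1.55% to 4.94% in non-responders (median 2.11%). Cd40lg was 0.204% and 0.256% of it in responders. Non-responders spanned 0 to 0.312% with a median of 0.0190%, and IgG controls 0 to 0.272% with a median of 0. Both responders thus lay inside these ranges and above both medians. The highest non-responder value, in replicate 10, rests on 4 counts, so these ranges are uncertain. Tnfrsf25 was 0.663% and 0.527% of it in responders, against 0.553% to 1.68% in non-responders. Relative to the T cell list, Tnfsf8, Tnfsf14, Tnfsf11 and Tnfrsf9 were lower in both responders than in any non-responder. Tnfsf8 was 3.16% and 2.61% against at least 4.50%, Tnfsf14 was 0.762% and 1.05% against at least 1.97%, and Tnfsf11 was 1.19% and 0.714% against at least 1.36%. For Tnfsf11 the IgG controls spanned 0.710% to 4.08%, so both responders lay within them. Tnfrsf9 was 3.05% and 6.95% against at least 24.01%. The T cell list holds Thy1, which is also in the fibroblast list. Thy1 was 9.89 to 41.4 CPM outside the responders and 124 and 81.9 CPM in replicates 15 and 16. It was thus a large part of the summed list outside the responders, which bears on every percentage of that list. These percentages are descriptions of the tumors and carry no test.

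**Figure D4:**
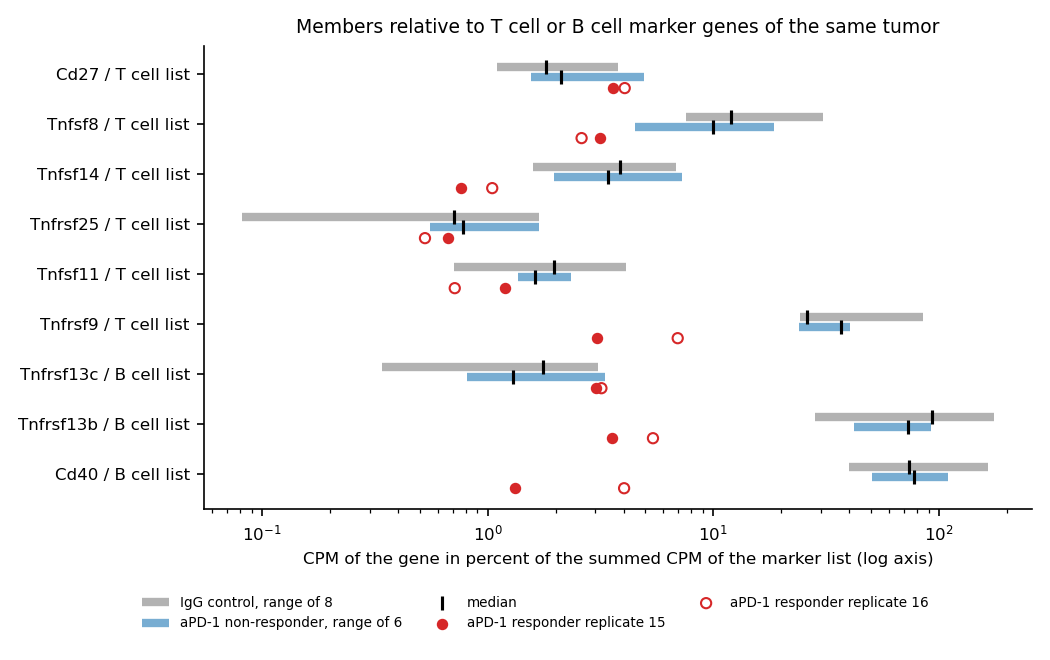
CPM of 9 members in percent of the summed CPM of the T cell or B cell list of the same tumor, on a log axis, with bars from the lowest to the highest IgG control and non-responder tumor, a tick at the median and circles for the responders. Cd27 and Tnfrsf13c lie in or next to the bars, and the circles of Tnfsf8, Tnfsf14, Tnfrsf9, Tnfrsf13b and Cd40 lie to the left of them.

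No member passed the test where treated tumors had not responded. In non-responders against IgG controls 0 of 33 members and 0% of all genes were called (edgeR), 5 members and 694 of all genes had an unadjusted p below 0.05, and the lowest adjusted p of a member was 0.987. DESeq2 also called 0 members there, with 6 at an unadjusted p below 0.05, and called 4 of all genes, with 787 at an unadjusted p below 0.05. The 5 members were Cd27, Tnfsf14, Cd40, Tnfrsf9 and Tnf, each higher on average in non-responders. Cd27, for example, was 1.28 ± 0.294 CPM in non-responders (SD, n = 6) and 0.708 ± 0.328 CPM in IgG controls (SD, n = 8), with 4 of 6 non-responders above all controls and a log2 difference of 0.86 ± 0.28 (SE). The median log2 fold change over the members was 0.14, against -0.01 over all genes.

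In the randomised contrast of all 8 aPD-1 tumors against the 8 IgG controls, 29 members were tested, and 0 of them and 0% of all 15775 genes were called (edgeR). An unadjusted p below 0.05 was found for 12 members and 1800 of all genes, and the lowest adjusted p of a member was 0.223, for Cd27. DESeq2 called 0 members, with 14 at an unadjusted p below 0.05, while it called 59 of all genes, with 1933 at an unadjusted p below 0.05. Cd27 was higher than in every control in 6 of 8 treated tumors, as were Tnfsf14, Cd40 and Tnfrsf8. Both responders were among these tumors, and the share of all genes with that separation is not given. The log2 fold changes were 2.88 ± 0.71, 0.84 ± 0.25, 0.83 ± 0.25 and 1.05 ± 0.36 (SE), and these differences did not pass the correction over all genes. For non-responders against IgG controls they were 0.86, 0.42, 0.34 and 0.77 in the same order.

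Other genes of the pathway were read from 4 lists, of other family members, adaptors and death signalling, the NF-kB core, and NF-kB feedback and TNF target genes. Of 46 tested genes 6 were called higher in responders against non-responders and 0 lower, and 12 were higher by the adjusted p alone, with a median log2 fold change of 0.22, where 12.5% and 15.4% of all genes were. Against IgG controls 9 of the 46 were called higher and 0 lower, where 14.3% and 0.641% of all genes were. The lymphotoxins, which organise lymphoid tissue, had the largest fold changes of these lists against non-responders, Ltb at 117 and 44.4 CPM in responders against 1.56 to 5.13 CPM in non-responders and Lta at 8.45 and 2.70 CPM against 0.182 to 0.591 CPM. Their log2 fold changes were 4.69 ± 0.38 for Ltb (SE, edgeR adjusted p = 2.47e-07) and 3.73 ± 0.57 for Lta (SE, edgeR adjusted p = 0.000162). Tnf, which lies between these genes on chromosome 17, was at 0.30 ± 0.34.

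Ngfr, the low affinity nerve growth factor receptor, was 8.54 and 1.66 CPM in responders against 0.0916 to 1.59 CPM in non-responders, a log2 fold change of 3.18 ± 0.79 (SE, edgeR adjusted p = 0.00796). Of the 10 NF-kB core genes 1 was called against non-responders. This was Rel, the lymphocyte subunit c-Rel, at 1.55 ± 0.23 (SE, edgeR adjusted p = 0.000123), while Rela was at 0.02 ± 0.19 (SE, edgeR adjusted p = 0.954). Of the 14 NF-kB feedback and TNF target genes 2 were called higher and 0 lower, where 12.5% of all genes were called higher. The median log2 fold change of the 14 was 0.26. The 2 were Icam1, an adhesion molecule, at 1.71 ± 0.24 (SE, edgeR adjusted p = 7.04e-05) and Tnfaip3, the inhibitor A20, at 1.03 ± 0.25 (SE, edgeR adjusted p = 0.00644). The rest of that list did not pass against non-responders. Of 14 adaptors and death signalling genes 0 were called against non-responders, and Ripk3 and Traf5 were called against IgG controls at 1.19 ± 0.19 and 1.01 ± 0.23 (SE, edgeR adjusted p = 0.000157 and 0.00361). In non-responders against IgG controls 0 of the 46 were called, with a median of 0.06.

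The next comparison used the 14 tumors other than responders, 8 IgG controls and 6 non-responders. The log2 CPM of the 33 members was correlated there with the mean log2 CPM of 4 marker lists (T cell, B cell, macrophage and monocyte, fibroblast), 132 pairs in all. By Pearson's r 6 pairs passed a two-sided permutation test with 100000 resamples after adjustment, and by Spearman's rho 0 did. Tnfsf10 ran with the T cell list at r = 0.78 (raw permutation p = 0.00101, adjusted p = 0.0444) and rho = 0.67 (raw permutation p = 0.0109, adjusted p = 0.141). Its r was 0.79 without the 2 tumors farthest from the median of the list, 0.86 without IgG control replicate 1, 0.73 within the 8 IgG controls and 0.67 within the 6 non-responders, so the sign held within both groups. Of the other 5 pairs none passed without IgG control replicate 1, the tumor with the highest mitochondrial share.

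With the macrophage list Tnfrsf11b (r = 0.82), Tnfsf18 (r = 0.78) and Tnfrsf13b (r = 0.75) ran upward and Tnfsf12 (r = -0.85) downward. Without the 3 tumors of high mitochondrial share these were 0.35, 0.42, 0.79 and -0.14. Tnfrsf21 ran with the fibroblast list at r = 0.77, and at 0.87 without those 3 tumors. Without the 2 tumors farthest from the median of the list r was 0.58 for Tnfrsf11b, 0.60 for Tnfsf18, 0.64 for Tnfrsf13b, -0.54 for Tnfsf12 and 0.52 for Tnfrsf21. Their rho was 0.69, 0.67, 0.80, -0.55 and 0.61 in the same order. The raw permutation p of r was 0.000400 to 0.00209 over the 5 pairs and 0.0350 to 0.0460 after adjustment. That of rho was 0.00109 to 0.0462, and 0.0924 to 0.224 after adjustment.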

How the data were processed

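Bulk RNA-seq of 2 sections of 100 microns from each of 16 fresh frozen tumors was used. The authors made poly(A) libraries and deposited gene-level expected counts, which RSEM estimates and which need not be whole. The submitters' processing notes name STAR 2.6 and RSEM 1.3.0 with GRCm38. The strand setting of the counting is not given in the sources used here. A matrix of 53465 genes remained after 92 spike-in entries (at most 185 counts in a tumor) were left out, and 7.84% of the deposited expected counts were not whole and were rounded.

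Symbols, coordinates and exon lengths came from GENCODE release M21 (53274 genes matched). One fit of 3 groups was made in edgeR 4.0.16 (R 4.3.3) by the quasi-likelihood test with TMM scaling, filterByExpr and robust dispersion, and a separate fit of 2 groups compared all aPD-1 with IgG tumors. Adjusted p is by Benjamini-Hochberg over all genes tested, called means below 0.05 with an absolute log2 fold change above 1, and CPM used TMM-scaled totals. DESeq2 1.42.0, other scaling, filters and leaving out tumors were tried. Correlations used log2 CPM with a prior count of 2. Python 3.11.15 with scipy 1.17.1 ran the permutations. The scripts were tested on simulated data. Each tumor came from another mouse and no pair of libraries agreed within sampling noise (over 120 pairs, chi-square divided by its degrees of freedom was at least 16.5). The members and the gene lists were chosen with earlier results of these data known. Members called in a responder comparison or passing its adjusted p were named, with all others given by role.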

Additional observations from a re-analysis of the deposited data

Results flagged for a closer look

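In each group of 6 or 8 tumors the highest and lowest value of every member was compared with its nearest neighbour, as a share of the group's range. Of 68 such tests 6 stood apart, where chance gives about 1 in 20 groups, or 3.4. Cd40lg was 0.122 CPM in non-responder replicate 10 against 0.0339 CPM in the next tumor (gap 0.721 of the range), a difference of a few counts. Cd70 was 0.0380 CPM in IgG control replicate 1 and 0 in the other 7 controls (gap 1 of the range), which rests on a single count. Tnfrsf19 was 1.14 CPM in IgG control replicate 6 against 0.246 CPM (gap 0.784). Tnfsf10 was 17.0 CPM in IgG control replicate 8 against 9.26 CPM (gap 0.676). Tnfsf12 was 19.2 CPM in IgG control replicate 1, the tumor with the highest mitochondrial share, against 11.3 CPM (gap 0.702). Tnfsf13b was lowest in non-responder replicate 10 at 8.93 CPM against 12.2 CPM (gap 0.757).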

How the results depend on the processing

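The 9 members called against non-responders were 7 to 10 under DESeq2, other size factors, other filters, a fit of both groups alone and without the 3 tumors of high mitochondrial share, and 6 to 11 when 1 tumor was left out, with 6 without responder replicate 15. The 14 called against IgG controls were 11 to 15 under the same settings and 9 to 14 with 1 tumor left out, with 9 without replicate 15. Pathway genes called were 4 to 7 against non-responders and 5 to 10 against IgG controls with 1 tumor left out, the lowest again without replicate 15. Of the 6 correlations 3 passed with median-of-ratios size factors, 0 within the 8 IgG controls, 1 without IgG control replicate 1 and 2 without the 3 tumors of high mitochondrial share. Leaving out those 3 tumors, and leaving out the most counted gene of IgG control replicate 3, were chosen after seeing the data. Apart from the stricter filter against non-responders, the share of all genes called is not given for these settings or with 1 tumor left out. The cause of these changes was not tested. Non-responders and all aPD-1 tumors against IgG controls kept 0 members called in every setting run. Over the alternatives of the single members, those that had passed still passed in 538 cases and lost it in 41, with no change of sign, and those that had not passed stayed so with the same sign in 422, passed in 18 and changed sign in 29. With 1 tumor left out, the log2 fold changes of the latter against non-responders were -0.091 to 0.23 for Tnfrsf1a, -0.39 to 0.55 for Tnfrsf9, -0.30 to 0.039 for Tnfsf12, -0.91 to 0.39 for Tnfsf13b, -1.78 to 0.61 for Tnfsf18 and -0.48 to 0.34 for Tnfsf4. Against IgG controls they were -0.028 to 2.68 for Tnfrsf19, -0.22 to 0.13 for Tnfsf12, -0.52 to 0.78 for Tnfsf13b, -1.94 to 0.44 for Tnfsf18 and -0.25 to 0.58 for Tnfsf4. Without the 3 tumors of high mitochondrial share, values against non-responders changed sign to -0.0074 for Tnfrsf26, -0.12 for Tnfrsf9, 0.066 for Tnfsf12 and -0.28 for Tnfsf4. With no filter on low counts, Tnfsf4 against non-responders was -0.030 and Tnfsf12 against IgG controls was -0.053, and both also changed sign without the most counted gene of IgG control replicate 3, to -0.0084 and -0.046. With 1 responder left, its spread is assumed to equal that of the other groups. No paired analysis was possible because the replicate numbers differ between all tumors. The group of 2 responders limits every responder comparison, and members with a few counts, such as Cd40lg and Cd70, are limited by depth.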
